A study of Mus musculus with 6 samples.

Results

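The platelet-derived growth factor (PDGF) family was examined in Prx1-Cre Ebf3-KO thoracic lateral plate mesenchyme cells (LPMs) by the 6 rows of the count table that carry its symbols: the receptors Pdgfra and Pdgfrb and the ligands Pdgfa, Pdgfb, Pdgfc and Pdgfd. The table held 49585 genes, of which 10891 had at least 10 counts in at least 3 libraries and were tested. These included 5 of the 6 members, and Pdgfb fell below this minimum. RNA came from Prx1:Tdtomato-positive cells of thoracic walls of C57BL/6 embryos (C57BL/6NCrSlc in the methods of the study) at E10.5, with limb buds, heart and other organs removed, in 3 libraries from Prx1-Cre Ebf3 flox/flox embryos (KO) and 3 from Prx1-Cre Ebf3 flox/+ embryos (heterozygous). Both genotypes carried Prx1-Cre, at least 1 floxed Ebf3 allele and the R26R Tdtomato reporter, so the reference was a heterozygote and no library without Cre was compared. Prx1-Cre acts in lateral plate and limb mesenchyme and removes only a pair of Ebf3 exons. The sources used here do not say whether a library held cells of 1 embryo or of several, so the p-values measure the spread between these libraries.

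PDGF ligands are secreted as dimers that bind 2 receptor tyrosine kinases at the cell surface. PDGF-A and PDGF-C signal mainly through PDGFR-alpha, which marks embryonic mesenchyme and is required for its migration and survival. PDGF-B and PDGF-D signal through PDGFR-beta, though PDGF-B not through it alone. PDGFR-beta is known for the recruitment of pericytes and smooth muscle cells to vessels. In the embryo PDGF-A is made largely by epithelia and muscle progenitors and PDGF-B by endothelium, so that ligand and receptor often sit in neighbouring tissues.

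Library totals were between 2088091 and 3525565 gene counts, which was 4.69% to 9.55% of all reads. Ebf3 was counted 308, 238 and 248 times in heterozygous replicates 1 to 3 and 179, 87 and 220 times in KO replicates 1 to 3, and every KO library lay below every heterozygous library in CPM (counts scaled to library size, with TMM factors), as the labels imply. All 14 markers of lateral plate and body wall mesenchyme were counted in every library, with a summed level of 4478 to 5946 CPM in heterozygous and 3958 to 5838 CPM in KO libraries. The sums of 11 endothelial markers were 62.6 to 176 CPM and 79.3 to 194 CPM, those of 10 epithelial markers 249 to 414 CPM and 246 to 302 CPM, and those of 8 myogenic markers 21.1 to 39.6 CPM and 31.7 to 49.99 CPM. Blood markers summed to at most 7.04 CPM in heterozygous libraries and at most 34.2 CPM in KO libraries, the highest being KO replicate 3. Sums of 9 neural and neural crest markers were 5.54 to 22.7 CPM and 6.94 to 33.4 CPM, those of 6 sclerotome markers 14.1 to 15.3 CPM and 14.9 to 29.8 CPM, and those of 7 liver markers 40.6 to 93.3 CPM and 18.8 to 303 CPM. Krt5, Sox2 and Uncx, each 1 gene of its list, had no count in any library, whereas 5 epithelial, 2 neural and neural crest and 2 sclerotome markers were counted in every library.

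The promoters of the leading receptor and the leading ligand are shown because EBF proteins bind a palindrome with the core CCCNNGGG, and Ebf3 is the gene that was deleted. The letters are the 250 bases before a RefSeq start on GRCm38.p6, written on the sense strand, at chr5:75152001-75152250 (plus strand) for Pdgfra and at chr3:81036166-81036415 (plus strand) for Pdgfc, with capitals reserved for a GC box (GGGCGG on either strand), of which there was none in either.
Pdgfra: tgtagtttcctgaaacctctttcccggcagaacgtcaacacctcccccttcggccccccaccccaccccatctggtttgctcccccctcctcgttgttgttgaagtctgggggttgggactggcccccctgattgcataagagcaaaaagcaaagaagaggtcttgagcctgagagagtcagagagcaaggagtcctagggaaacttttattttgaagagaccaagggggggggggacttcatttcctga
Pdgfc: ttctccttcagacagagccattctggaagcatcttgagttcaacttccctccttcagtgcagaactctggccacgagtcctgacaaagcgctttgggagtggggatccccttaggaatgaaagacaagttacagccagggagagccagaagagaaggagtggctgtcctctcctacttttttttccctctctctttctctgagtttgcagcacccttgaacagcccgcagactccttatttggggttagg
Neither holds CCCNNGGG, which reads the same on both strands and occurs in 11.8% of the 32851 promoter windows of this length. Of the 6 members, Pdgfa, Pdgfc, Pdgfd and Pdgfra had a promoter in the table. Pdgfra had 4 and Pdgfc 3 CpG dinucleotides in this window, against a median of 6 over all windows. The windows before the 2 starts of Pdgfa held 19 and 28, with 1 and 2 GC boxes (found in 32.7% of windows), and the first of them held 1 CCCNNGGG core. Pdgfd had 3 CpG dinucleotides and 1 TATAAA, a sequence found in 12.4% of windows on either strand. A match or its absence describes only these letters.

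Pdgfra, which encodes PDGFR-alpha, was the most abundant member. The deposited RPKM (reads per kilobase of exon, scaled to mapped reads) allows genes of different length to be compared, and on this scale Pdgfra stood at 27.5, 21.3 and 16.5 in heterozygous replicates 1 to 3 and at 19.7, 11.2 and 27.4 in KO replicates 1 to 3. Its mean RPKM ranked 604 among the 10891 tested genes. Pdgfrb followed at 9.22, 6.74 and 6.62 RPKM in heterozygous and 9.16, 4.57 and 9.72 RPKM in KO replicates, and Pdgfc at 3.99, 2.98 and 4.29 RPKM and 3.75, 2.99 and 5.37 RPKM. The order Pdgfra, Pdgfrb, Pdgfc was found in 6 of 6 libraries. The values of Pdgfra and Pdgfrb did not overlap over the 6 libraries, whereas those of Pdgfrb and Pdgfc did, although Pdgfrb was the higher within each library. The other 3 ligands were much lower. Pdgfd lay between 0.268 and 0.586 RPKM and Pdgfa between 0.163 and 0.761 RPKM, so that these neighbours in the order overlapped and Pdgfd was the higher in 4 of 6 libraries. Pdgfb was at 0 to 0.163 RPKM. Summed over genes, the receptors stood 4.37 to 7.77 times above the ligands in RPKM, and Pdgfra 2.15 to 3.16 times above Pdgfrb. The authors scaled RPKM to mapped reads, of which genes took a share that differed between libraries, so the order within a library does not depend on that scaling and the ranges and means over libraries do.

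**Figure D1:**
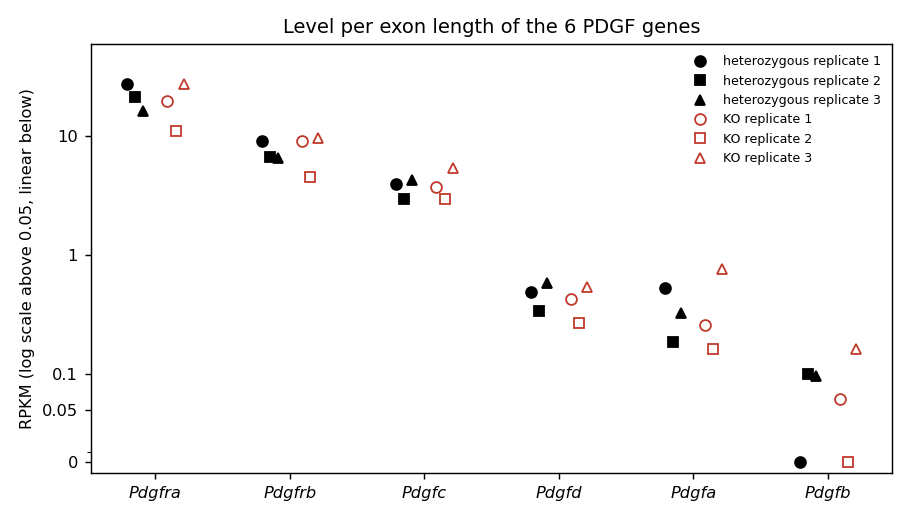
Deposited RPKM (vertical axis, log scale above 0.05 and linear below) of the 6 PDGF genes in each of the 6 libraries, with heterozygous libraries in black and KO libraries in red and the replicate number by symbol. Pdgfra (11.2 to 27.5 RPKM), Pdgfrb and Pdgfc are ordered alike in every library, and Pdgfa, Pdgfd and Pdgfb lie below 1 RPKM.

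The first comparison asked whether the loss of Ebf3 changed the receptors. Pdgfra was counted 3186, 2203 and 1785 times in heterozygous replicates 1 to 3 and 2182, 1323 and 2885 times in KO replicates 1 to 3, which gave 979, 913 and 760 CPM against 902, 656 and 796 CPM. The genotypes overlapped: KO replicate 2 was the lowest of the 6 libraries, but heterozygous replicate 3 lay below the other 2 KO libraries. The means were 884 ± 112 CPM (SD, n = 3) in heterozygous and 784 ± 123 CPM (SD, n = 3) in KO LPMs. The log2 fold change of KO over heterozygous from edgeR was -0.17 (SE 0.15, 95% interval -0.51 to 0.17, unadjusted p = 0.287), so the interval runs from 0.702-fold to 1.12-fold. The adjusted p was 1 over all genes, as for every other gene tested. The fold change was negative in each of the leave-one-out fits, at -0.28 to -0.06, and without KO replicate 1 the unadjusted p from edgeR was 0.0823. In that fit 756 of all genes had an unadjusted p up to 0.05, against 234 with all 6 libraries. In bulk RNA fewer Pdgfra-positive cells and less Pdgfra RNA per cell cannot be told apart. The spread of Pdgfra between libraries of one genotype, 12.7% and 15.7% of its mean in heterozygous and KO LPMs, was above the 2.08% and 2.24% that counting error alone gives.

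Pdgfrb, which encodes PDGFR-beta, stood at 179, 158 and 167 CPM in heterozygous replicates 1 to 3 and at 230, 147 and 155 CPM in KO replicates 1 to 3. KO replicate 1 was the highest library and the other 2 KO libraries were the lowest, so the genotypes overlapped. The means were 168 ± 10.6 CPM (SD, n = 3) in heterozygous and 177 ± 46.0 CPM (SD, n = 3) in KO LPMs, with a log2 fold change of 0.07 (SE 0.18, 95% interval -0.31 to 0.46, unadjusted p = 0.681 from edgeR). Without KO replicate 1 the log2 fold change was -0.16 (unadjusted p = 0.244). KO replicate 1 also had the highest sum of 11 pericyte and smooth muscle markers, 662 CPM against 355 to 433 CPM in the other KO libraries and 344 to 471 CPM in heterozygous libraries. Of this list 10 genes were counted in every library. Abundant genes weigh most in such a sum, among them Acta2 at 252 CPM in KO replicate 1 and between 100 and 161 CPM elsewhere. By these values the sum of the list without Acta2 was also highest in KO replicate 1. Such a sum does not show whether each of the other genes was highest there. The part of these markers in the value of Pdgfrb was not tested. By counts, Pdgfra made up 84.5%, 85.2% and 82.0% of receptor reads in heterozygous replicates 1 to 3 and 79.7%, 81.7% and 83.7% in KO replicates 1 to 3. The lowest share, in KO replicate 1, had a 95% Clopper-Pearson interval of 78.1% to 81.2% and the highest, in heterozygous replicate 2, one of 83.8% to 86.6%, for counting error only. The ranges of the 2 genotypes overlapped.

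**Figure D2:**
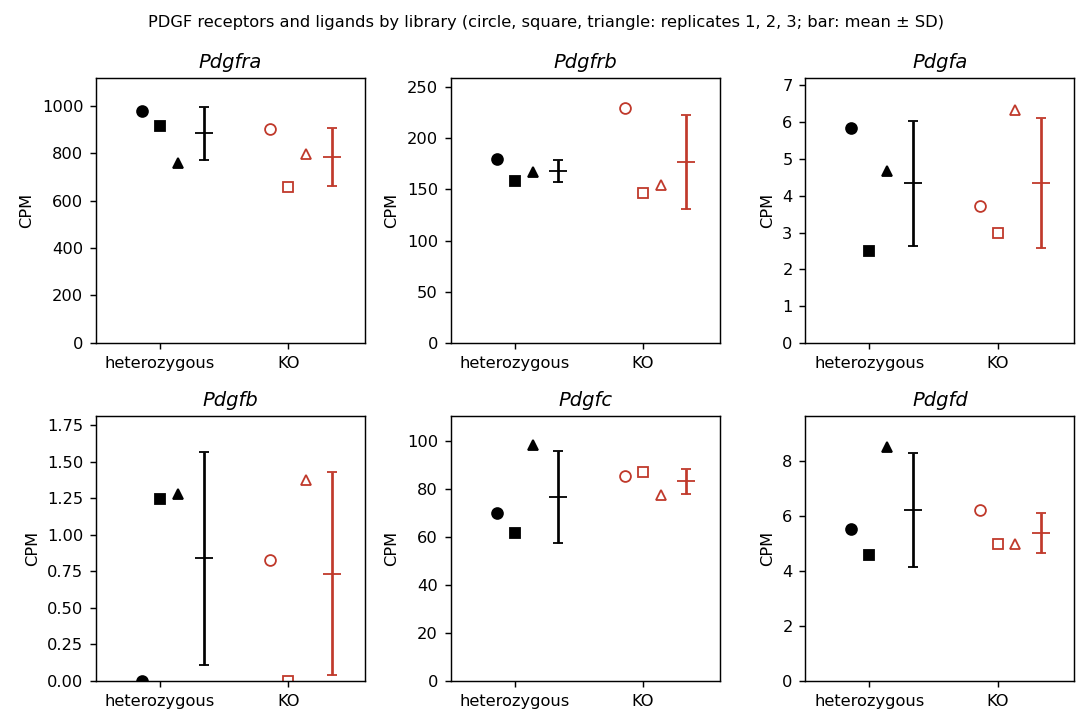
CPM (vertical axis, from 0) of each PDGF gene in heterozygous (black) and KO (red) libraries, with the mean and SD of 3 libraries as a bar. The genotypes overlap for all 6 genes, and KO replicate 1 stands above the others for Pdgfrb at 230 CPM.

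Among the ligands Pdgfc, which binds PDGFR-alpha once its CUB domain has been cleaved off, took most of the reads. Its level was 70.0, 61.7 and 98.4 CPM in heterozygous replicates 1 to 3 and 85.5, 87.3 and 77.5 CPM in KO replicates 1 to 3. All 3 KO libraries lay between heterozygous replicate 1 and heterozygous replicate 3. The means were 76.7 ± 19.2 CPM (SD, n = 3) in heterozygous and 83.4 ± 5.21 CPM (SD, n = 3) in KO LPMs, with a log2 fold change of 0.12 (SE 0.17, 95% interval -0.26 to 0.50, unadjusted p = 0.503 from edgeR). The heterozygous libraries decided its size, since it was 0.34 without heterozygous replicate 3 (unadjusted p = 0.0695 from edgeR) and -0.01 without heterozygous replicate 2. Among KO libraries the spread of Pdgfc was 6.24% of the mean, where counting error gives 6.88%, and among heterozygous libraries it was 25.03% where counting error gives 7.06%. Pdgfc made up 86.0%, 88.2% and 87.2% of ligand counts in heterozygous replicates 1 to 3 and 88.8%, 91.7% and 85.9% in KO replicates 1 to 3.

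The remaining ligands were close to the limit of these libraries, where 3 counts correspond to 0.851 to 1.44 CPM by library totals without TMM factors. Pdgfa, whose product also signals mainly through PDGFR-alpha, was counted 19, 6 and 11 times in heterozygous replicates 1 to 3 and 9, 6 and 23 times in KO replicates 1 to 3. That gave 4.34 ± 1.70 CPM (SD, n = 3) in heterozygous and 4.35 ± 1.77 CPM (SD, n = 3) in KO LPMs, with a log2 fold change of 0.03 (SE 0.47, 95% interval -1.004 to 1.07, unadjusted p = 0.944 from edgeR). This interval covers a change of 2.10-fold in KO LPMs, so a difference of that size in Pdgfa is not excluded. The sign of Pdgfa turned without heterozygous replicate 2, to -0.23.

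Pdgfd, which binds PDGFR-beta and like Pdgfc is made with a CUB domain, was counted 18, 11 and 20 times in heterozygous replicates 1 to 3 and 15, 10 and 18 times in KO replicates 1 to 3. Its mean was 6.20 ± 2.06 CPM (SD, n = 3) in heterozygous and 5.37 ± 0.714 CPM (SD, n = 3) in KO LPMs. Only heterozygous replicate 3, at 8.52 CPM, stood above the highest KO library. The log2 fold change was -0.20 (SE 0.39, 95% interval -1.06 to 0.66, unadjusted p = 0.619 from edgeR), and 0.08 without heterozygous replicate 3. Pdgfb, the endothelial ligand of PDGFR-beta, was counted 0, 3 and 3 times in heterozygous and 2, 0 and 5 times in KO replicates 1 to 3. Its 13 counts gave a KO to heterozygous ratio of summed counts of 1.16 (95% interval 0.334 to 4.18 by the Clopper-Pearson method, from counting error alone), which leaves the direction unknown. The counts of 0 in heterozygous replicate 1 and KO replicate 2 allow up to 0.921 and 1.44 CPM by library totals without TMM factors.

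Across the family, 0 of 5 tested members had an adjusted p under 0.05 from edgeR, where 0% of all tested genes had one. Likewise 0 of 5 had an unadjusted p up to 0.05, against 2.15% of all tested genes, and DESeq2 and limma-voom gave 0 of 5 on both counts. For 0 of 5 the libraries of the genotypes were separate, against 7.46% of all tested genes in either direction. The median log2 fold change of the 5 members was 0.03, beside 0.00 over all genes tested. A missed threshold does not show equal levels: the 95% intervals of Pdgfra, Pdgfrb and Pdgfc leave room for 1.12-fold to 1.42-fold higher or 0.702-fold to 0.833-fold lower levels in KO LPMs, and those of Pdgfa and Pdgfd for levels from 0.480-fold to 2.10-fold. The members did not share 1 order of libraries, although counting error can set the ranks of Pdgfa and Pdgfd. Heterozygous replicate 2 and KO replicate 2 had 6 and 6 counts of Pdgfa and 11 and 10 counts of Pdgfd. KO replicate 2 was lowest for both receptors, heterozygous replicate 2 was lowest for Pdgfa, Pdgfc and Pdgfd, and the highest library was KO replicate 3 for Pdgfa, KO replicate 1 for Pdgfrb, heterozygous replicate 1 for Pdgfra and heterozygous replicate 3 for Pdgfc and Pdgfd.

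**Figure D3:**
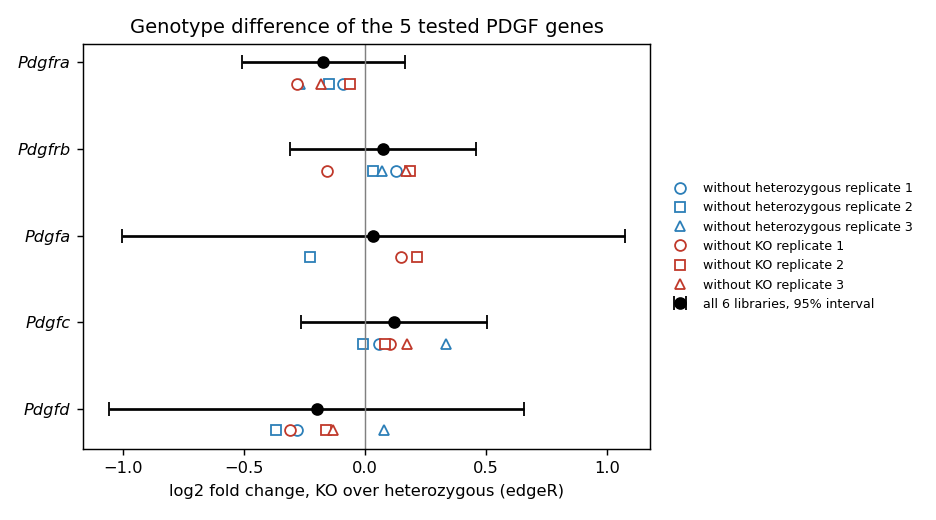
Log2 fold change of KO over heterozygous (horizontal axis, edgeR) for the 5 tested PDGF genes, with the 95% interval as a black bar and the value of each fit without 1 library as an open symbol beneath (blue without a heterozygous library, red without a KO library, 3 such fits for Pdgfa). Every interval includes 0, and Pdgfra alone stays on one side of 0 (-0.28 to -0.06) whichever library is left out.

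The genes whose level followed each member most closely over the 6 libraries were found by the root mean square difference of centred log2 CPM. For Pdgfra these were Lmf1 (0.02), Zfp292 (0.04) and Taok1 (0.04), against a median of 0.30 over all tested genes. For Pdgfrb they included Pde4dip (0.05) and Fbxo42 (0.05), against a median of 0.31. For Pdgfc they were B230118H07Rik (0.04), Trappc10 (0.06) and Stx7 (0.06), for Pdgfd Sharpin (0.07), Rpp38 (0.08) and Fam172a (0.08), and for Pdgfa Cirbp (0.10), Tmem151a (0.12) and Rasa3 (0.13). No other member of the family was among these. They are the closest of 10891 genes over 6 libraries, which share depth and composition, and are given as a description.

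The next group joins the enzymes and binding partners that act on the ligands outside the cell with phosphatases and other regulators of the receptors. Pcsk5, a proprotein convertase that can cleave the PDGF-A precursor, stood at 40.9, 37.3 and 41.3 CPM in heterozygous replicates 1 to 3 and at 31.8, 26.3 and 24.8 CPM in KO replicates 1 to 3, so that every KO library lay below every heterozygous library, as in 3.51% of all tested genes. The edgeR estimate for Pcsk5 on the log2 scale was -0.53 (SE 0.18, unadjusted p = 0.012). Omitting 1 library moved it from -0.64 to -0.45, and its unadjusted p was 0.0534 without KO replicate 3. A lower level in KO LPMs with an unadjusted p up to 0.05 was found for 0.771% of all tested genes. Furin, the convertase best known for PDGF-A and PDGF-B, differed by -0.12 on the log2 scale (SE 0.16, unadjusted p = 0.470 from edgeR). Plat, the tissue plasminogen activator that cleaves PDGF-C, differed by 0.20 (SE 0.21, unadjusted p = 0.352). Plau, the urokinase that can cleave PDGF-D, had 66 counts in all and was below the minimum. Ptpn2, a phosphatase that acts on receptor tyrosine kinases, differed by 0.28 (SE 0.19, unadjusted p = 0.167), which became 0.49 without heterozygous replicate 2 (unadjusted p = 0.0277) and 0.17 without heterozygous replicate 3 or KO replicate 2. For Lrp1, a large endocytic receptor that associates with PDGFR-beta, the log2 difference was -0.30 (SE 0.25, unadjusted p = 0.251). Omitting KO replicate 1 made it -0.65 (unadjusted p = 0.0033), and omitting heterozygous replicate 1, KO replicate 2 or KO replicate 3 made it -0.07, -0.16 or -0.13. Lrp1 stood at 705 CPM in heterozygous replicate 1 and 640 CPM in KO replicate 1 and at 341 to 484 CPM in the other 4 libraries. Of the 17 genes of this group 14 were tested. The mean was higher in KO LPMs for 5 and lower for 9, where 50.2% of all tested genes had a higher mean. The median log2 fold change of the 14 was -0.06. Pcsk5 alone had an unadjusted p up to 0.05, and 0 had an adjusted p under 0.05. If KO replicate 1 was omitted 3 genes had such an unadjusted p, if heterozygous replicate 2 was omitted 2 genes had one, and if KO replicate 3 was omitted 0 had one. Over all genes 234 had one with all 6 libraries. Without KO replicate 1, heterozygous replicate 2 and KO replicate 3 the number over all genes was 756, 230 and 127.

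Inside the cell, activated PDGF receptors recruit adaptors, lipid kinases and phosphatases. Grb2, the adaptor that links the receptors to Ras, stood at 36.9, 45.2 and 39.2 CPM in heterozygous replicates 1 to 3 and at 54.1, 56.5 and 48.5 CPM in KO replicates 1 to 3, with every KO library above every heterozygous library, as in 3.95% of all tested genes. Grb2 differed by 0.39 on the log2 scale (SE 0.16, unadjusted p = 0.0302 from edgeR), and 1.38% of all tested genes were higher in KO LPMs with an unadjusted p up to 0.05. In fits that omitted heterozygous replicate 1 or 3 the unadjusted p of Grb2 was 0.105 or 0.0788, and in fits that omitted KO replicate 1 or 2 it was 0.0611 or 0.0869. The adaptor Nck2 differed by -0.38 (SE 0.18, unadjusted p = 0.0648), or by -0.48 if heterozygous replicate 3 was omitted (unadjusted p = 0.0404), and the ubiquitin ligase Cblb, which turns receptors over, by -0.19 (SE 0.13, unadjusted p = 0.172). Of the 37 signalling genes 36 were tested. The mean was higher in KO LPMs for 15 and lower for 21, where 50.2% of all tested genes had a higher mean. The median log2 fold change of the 36 was -0.02. Grb2 was the 1 gene with an unadjusted p up to 0.05, and 0 had an adjusted p under 0.05. There were 3 of the former without KO replicate 1, and 0 without KO replicate 2 or heterozygous replicate 1. Over all genes there were 234 with all 6 libraries. Without KO replicate 1, KO replicate 2 and heterozygous replicate 1 there were 756, 367 and 224.

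The vascular endothelial growth factors share the cystine-knot fold of the PDGFs, and Kit and Csf1r belong to the same receptor class as the PDGF receptors. Vegfd, a lymphatic growth factor, stood at 5.22, 12.8 and 8.94 CPM in heterozygous replicates 1 to 3 and at 2.89, 5.95 and 0.827 CPM in KO replicates 1 to 3, with KO replicate 2 above heterozygous replicate 1. These levels rest on 17, 31 and 21 counts in heterozygous and 7, 12 and 3 counts in KO replicates 1 to 3. Vegfd was thus also close to the limit of these libraries. Vegfd differed by -1.59 on the log2 scale (SE 0.60, unadjusted p = 0.0224 from edgeR). The difference was -1.24 if heterozygous replicate 2 was omitted and -1.02 if KO replicate 3 was, with unadjusted p-values of 0.0909 and 0.0865. Vegfd is in the deposited list of genes that the authors selected on these samples, so it is not independent evidence. Csf1, the ligand of Csf1r, differed by -0.45 (SE 0.29, unadjusted p = 0.147), or by -0.69 without KO replicate 1 and -0.24 without heterozygous replicate 3. Flt4, whose product is the VEGFR-3 receptor kinase, differed by 0.62 (SE 0.41, unadjusted p = 0.160), or by 1.13 without heterozygous replicate 3 (unadjusted p = 0.0187) and 0.35 without heterozygous replicate 2. Vegfa, which guides vessel growth, differed by 0.09 (SE 0.15). Of 14 genes 13 were matched in the table and 11 were tested, 8 with a higher and 3 with a lower mean, where 50.2% of all tested genes had a higher mean. Vegfd was the 1 gene with an unadjusted p up to 0.05, against 2.15% of all tested genes in either direction. There were 3 such genes if heterozygous replicate 3 was omitted, and 0 if heterozygous replicate 2 or KO replicate 3 was. Over all genes the number was 234 with all 6 libraries. It was 241, 230 and 127 without heterozygous replicate 3, heterozygous replicate 2 and KO replicate 3.

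Of the 15 genes that PDGF or serum induces within minutes 9 were tested, and the KO mean was the higher for 8 of the 9. Their median difference on the log2 scale was 0.56. The 2 of them with an unadjusted p up to 0.05 were Egr1 and Fos, against 1.38% of all tested genes in that direction, and for 0 of the 9 the adjusted p was under 0.05. Omitting KO replicate 1, 2 or 3 turned the count of 2 into 4, 5 or 1, and the count of 234 over all genes into 756, 367 or 127. When genes of any count were tested it was 7, of which 3 had an adjusted p under 0.05. Of all tested genes, 50.2% had a higher KO mean. Egr1, a zinc-finger transcription factor, stood at 11.7, 23.2 and 20.4 CPM in heterozygous replicates 1 to 3 and at 47.9, 24.3 and 117 CPM in KO replicates 1 to 3. The highest value by far was that of KO replicate 3. Egr1 differed by 1.83 on the log2 scale (SE 0.48, unadjusted p = 0.00258 from edgeR), and by 1.001 when KO replicate 3 was omitted (unadjusted p = 0.0177). Fos, a subunit of AP-1, was lowest of the 6 libraries in KO replicate 2, at 9.92 CPM. Fos differed by 1.85 (SE 0.62, unadjusted p = 0.0128), or by 0.74 when KO replicate 3 was omitted (unadjusted p = 0.182). The phosphatase gene Dusp1 differed by 0.83 (SE 0.39, unadjusted p = 0.0542), or by 0.16 in that case, and its unadjusted p was 0.0116 without KO replicate 1 and 0.0213 without KO replicate 2. Myc was the 1 tested gene with a lower mean, at -0.24 (SE 0.23). Egr1 and Fos are in the same deposited list, so the count is not independent evidence. These genes respond to many signals besides PDGF. In KO replicate 3 Pdgfa, at 6.34 CPM and 23 counts, and Pdgfb, at 1.38 CPM and 5 counts, were at their highest, while Pdgfra, Pdgfrb, Pdgfc and Pdgfd lay within the range of the other libraries. Heterozygous replicate 1 was close for Pdgfa, at 5.84 CPM and 19 counts. Heterozygous replicate 3 was close for Pdgfb, at 1.28 CPM and 3 counts. KO replicate 3 also had the highest sums of blood, liver and endothelial markers, at 34.2, 303 and 194 CPM. Its sums of neural and neural crest markers, 33.4 CPM, and of sclerotome markers, 29.8 CPM, were the highest too. The part of these markers in these values was not tested.

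**Figure D4:**
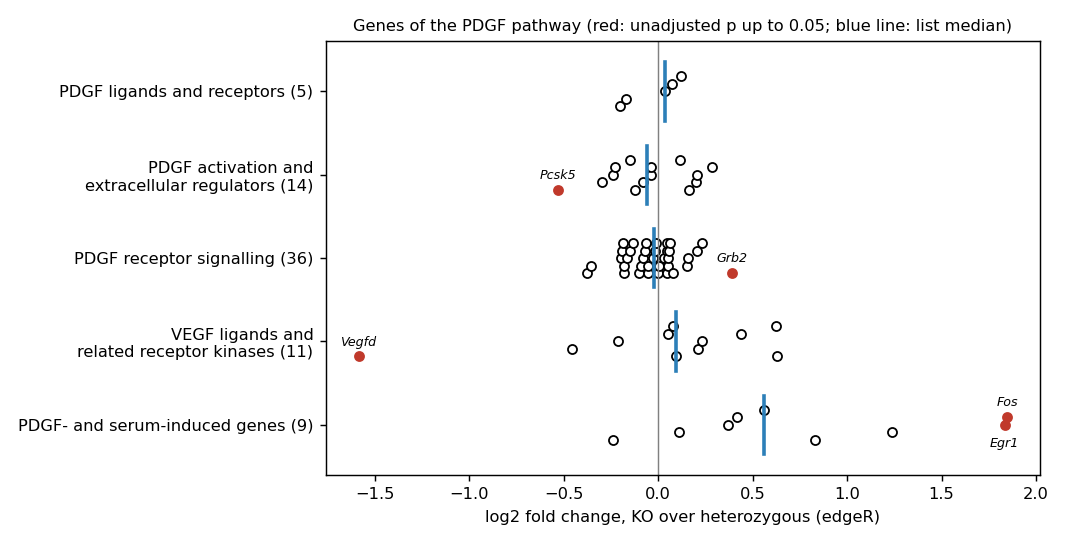
Log2 fold change of KO over heterozygous (horizontal axis, edgeR) for each tested gene of the family and of 4 related groups, the number tested in brackets, with red symbols for an unadjusted p up to 0.05 and a blue line at the median of the group. The 5 PDGF genes lie between -0.20 and 0.12, and the PDGF- and serum-induced genes have a median of 0.56.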

How the data were processed

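Libraries were made by the authors with the SMARTer kit from total RNA of sorted cells, sequenced on the NextSeq-500 platform and mapped with the mouse annotation provided by CLC. The authors deposited whole-number counts for each gene, RPKM, and a quantile-normalized signal that the authors made from the counts. Its columns of the authors' own comparison (p-values and fold changes), and the values in the list selected on them, were not used. The study names mm10 and the processing notes name mm9. The coordinates in the table overlapped the gene of the same symbol in GENCODE M21 (GRCm38/mm10) for 99.9% of 47102 genes.

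The quasi-likelihood test of edgeR (version 4.0.16, under R 4.3.3, TMM factors, genotype as the only term) was applied to the 10891 genes that reached 10 counts in 3 or more libraries, with Benjamini-Hochberg adjustment over all of them. The SE is the log2 fold change divided by the square root of F, and 95% intervals use the degrees of freedom of the fit. CPM used TMM-scaled library sizes (TMM factors 0.970 to 1.035). The pipeline was tested on simulated data. Intervals of shares are Clopper-Pearson and cover counting error only, since reads without molecular identifiers are not separate molecules. The stated design of the study, an equal-variance test, was an alternative, as were DESeq2 1.42.0, limma 3.58.1 (voom, and log2 of RPKM with pseudocounts of 1 and 0.1), library size or upper quartile scaling, DESeq2 size factors, other count filters, the replicate number as a block and each library left out. The quantile-normalized signal was added after seeing the data. Tables were handled in Python 3.11.15.

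Named genes are all members, up to 3 tested genes of smallest p in each related group, the 3 genes of most similar pattern for each tested member (log2 CPM, prior count 2) and Ebf3, and 1 gene that this rule names is not reported here. Furin, Plat, Plau, Vegfa, Myc and Acta2 were named after their values were seen. The members and lists were chosen with earlier results of these data known. Promoters are from RefSeq on GRCm38.p6. On GRCm38/mm10 the members lie on chromosome 5 from 75152292 to 75198215 (Pdgfra), 18 from 61045150 to 61085061 (Pdgfrb), 5 from 138976014 to 138997370 (Pdgfa), 15 from 79995900 to 80014808 (Pdgfb), 3 from 81036416 to 81214040 (Pdgfc) and 9 from 6168584 to 6378850 (Pdgfd). Annotated genes that overlap them had at most 1 count in all where the table lists them.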

Additional observations from a re-analysis of the deposited data

How the results depend on the processing

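No log2 fold change of a tested PDGF gene passed an adjusted p of 0.05 under any alternative that could be run (86 values, smallest adjusted p 0.721, smallest unadjusted p 0.0695). Pdgfra kept its sign throughout, at -0.22 to -0.11 under the other settings and -0.28 to -0.06 with 1 library left out. Signs turned in 7 cases: Pdgfa at -0.072 with quantile-normalized values and -0.0027 with the replicate number as a block, Pdgfrb at -0.0039 with RPKM plus 0.1, and 4 fits with 1 library left out. Those fits ranged from -0.23 to 0.22 for Pdgfa, -0.0093 to 0.34 for Pdgfc, -0.37 to 0.077 for Pdgfd and -0.16 to 0.19 for Pdgfrb. The cause was not tested. Pdgfa could not be fitted with 10 counts in every library, nor without heterozygous replicate 1 or 3 or KO replicate 3, where it fell below the minimum. The ratio of mean CPM of Pdgfb was 0.875, between 0.492 and 1.31 with 1 library left out.

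Over all genes, 0 passed an adjusted p of 0.05 and 234 an unadjusted p of 0.05. The first number was 38 with no count filter, 5 with RPKM plus 0.1 and 2 with the block, and 0 to 1 with 1 library left out. The second was 125 with DESeq2, 81 with RPKM plus 0.1, 26 with RPKM plus 1, 398 with the equal-variance test, 571 with no count filter, 493 with the block and 127 to 756 with 1 library left out. With no count filter Ebf3, Egr1 and Fos had adjusted p-values from edgeR of 0.0054, 5.84e-14 and 4.22e-13. The equal-variance test on CPM gave these genes unadjusted p-values of 0.0131, 0.187 and 0.274. In the labels, same-numbered libraries of the 2 genotypes have only a number in common. Their deviations correlated at 0.43, 0.19 and 0.01, and those of the other pairs across genotypes at -0.34 to 0.13. A link between same-numbered libraries was not tested. With the block no PDGF gene changed its call. Among the pathway genes refitted, the block brought the unadjusted p of Lrp1 to 0.0073 and that of Dusp1 to 0.0174. Depth limits Pdgfa, Pdgfb and Pdgfd, at 74, 13 and 92 counts over 6 libraries.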
